A study of Danio rerio with 12 samples.

Results

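The genes described here encode the proteins that copy DNA in S phase and the proteins that separate the chromosomes in mitosis (M phase). A list of 55 names was matched to the gene table by identifier or by symbol, ignoring case, without using any measured value. In all 52 of the 55 were matched, to 53 of the 32105 genes in the table, since rrm2 has 2 copies. The S phase genes number 27 and the M phase genes 26, and all 53 had enough counts to be tested. The M phase names incenp, birc5a and ube2c found no identifier and are not analysed here. Expression was measured by RNA sequencing of whole zebrafish (Danio rerio) of a wild-type strain, 2 days old. The 12 libraries form 3 groups of 4: a control group with no perturbation, a group with 2 ng of synthetic miR-101a and a group with 2 ng of synthetic miR-29a. A mock-treated group is not named in the labels, which state neither the route of the microRNA nor how many embryos went into a library. They also do not say that replicates came from separate clutches, so the spread behind each p-value may be a technical one between samples.

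A dividing cell copies its genome once per cycle. Origins of replication are licensed by loading the MCM2-7 helicase, which is then activated so that polymerases can follow the opened fork. In mitosis cyclin B with CDK1 starts chromosome condensation and spindle assembly, and the spindle checkpoint holds the anaphase-promoting complex back until every kinetochore is attached. Transcripts of these genes are abundant in cycling cells and scarce in differentiated ones, and E2F factors drive many of the S phase genes. At 2 days the zebrafish embryo still holds many dividing cells, in the brain and retina among other places. A microRNA, bound to an Argonaute protein, pairs with messenger RNAs and lowers their level or translation. The roles given below are mostly known from human and yeast cells.

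Total gene counts ran from 19804199 to 30383374 per library. The library miR-29a replicate 3 stood apart from the rest: 14.6% of its counts fell on ribosomal protein genes, against 7.57% to 9.02% in the other 11 libraries, and its scaling factor (TMM) was 0.729 against 0.963 to 1.11. Genes were tested with edgeR's quasi-likelihood test, and a gene is called, and said to have risen or fallen, at a Benjamini-Hochberg adjusted p under 0.05 over all genes tested. Replicates spread with a biological coefficient of variation of 21.67% over the 12 libraries and of 7.72% without that library. Counts and changes of members are therefore mostly given both over 12 libraries and without miR-29a replicate 3. Shares of all genes called are from edgeR in these fits. Counts from other fits stand without such a share, which can move with the fit. Where a call is said to have been made without replicate 3, the 12-library value beside it was not called unless stated. Levels are counts-per-million values after TMM scaling (CPM), changes are on the log2 scale, with a standard error after ±, and 4 libraries per group entered each fit, or 3 for miR-29a where replicate 3 was left out.

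The members were well above the typical gene in level. The median S phase gene had 44.0 CPM in control and the median M phase gene 75.5 CPM, against 11.1 CPM over the 20872 genes tested. Per length, the highest control levels were 386 ± 14.8 RPKM (mean ± SD, n = 4) for pcna, 106 ± 4.76 for rrm1, 89.3 ± 3.72 for mki67, 81.4 ± 1.75 for cdk1 and 80.5 ± 3.92 for mcm5. The lowest was birc5b, at 0.375 ± 0.093 RPKM. Apart from birc5b, which had 128 counts over the 12 libraries, every member had more than 3000.

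With miR-29a, replication and mitosis genes were lower together. Of the 27 S phase genes 11 fell and of the 26 M phase genes 10 fell, or 40.7% and 38.5%, where 11.9% of all genes tested fell. Without miR-29a replicate 3 these counts were 21 of 27 and 23 of 26, or 77.8% and 88.5%, against 26.8% of all genes tested. In that fit every one of the 53 members had a fold change below 0, with a median of -0.41 in the S phase genes and -0.45 in the M phase genes beside -0.005 over all genes tested. With all 12 libraries the medians were -0.24 and -0.29. No member rose with miR-29a in either fit, nor at an unadjusted p under 0.05, where 17.1% of all genes rose over 12 libraries and 25.8% over 11. DESeq2 also called no rise, and gave 13 falls in each set with 12 libraries, and 21 and 23 without replicate 3. Without control replicate 1, 7 S phase genes fell over the remaining 11 libraries.

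With miR-101a, calls were fewer, and the excess of S phase over M phase falls varied with the libraries and scaling used. Over 12 libraries 3 of 27 S phase genes (mcm2, rrm1 and ccna2) and 2 of 26 M phase genes (kif11 and mki67) fell. As shares these were 11.1% and 7.69%, where 6.97% of all genes tested fell. The M phase share was near the background, and the S phase share rested on 3 genes. DESeq2 called 7 and 2 falls over the 12 libraries, and edgeR with RLE scaling 6 and 2. At an unadjusted p under 0.05 edgeR with TMM scaling gave 8 and 3 falls over them. Without miR-29a replicate 3, which is no miR-101a library but widens the shared estimate of the spread, 14 of 27 S phase genes and 6 of 26 M phase genes fell. Those shares of 51.9% and 23.1% stood beside 24.2% of all genes tested, so the M phase share was again near the background. In the same fit 1 S phase gene and 3 M phase genes rose, where 23.7% of all genes did. With 12 libraries edgeR and DESeq2 called no rise among the members, where edgeR called 11.7% of all genes higher. Neither gave a rise at an unadjusted p under 0.05. limma voom with quality weights over the same 12 libraries called 2 S phase and 3 M phase rises. Its weight was 0.028 for miR-29a replicate 3, against 0.78 to 2.68 for the other libraries. That library therefore hardly entered the voom fit. edgeR on only the 8 libraries compared also called 2 and 3 rises. Leaving out control replicate 2, control replicate 4 or miR-101a replicate 1 left 1 S phase fall, and leaving out miR-29a replicate 1 gave 6. Without miR-101a replicate 3, 1 S phase gene fell and 1 rose. In each of these fits 2 M phase genes fell. Leaving out control replicate 1 or 3 or miR-101a replicate 2 or 4 left 2 falls in each set. The M phase median was 0.006 without miR-101a replicate 1. Median changes without replicate 3 were -0.155 in the S phase genes and -0.05 in the M phase genes, against 0.001 over all genes tested. The S phase counts were not tested against the M phase counts.

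The direct comparison of the microRNAs tests the difference itself. With 12 libraries 3 S phase genes and 8 M phase genes were higher with miR-101a than with miR-29a, or 11.1% and 30.8%, where 9.23% of all genes were. Without miR-29a replicate 3, 21 of 27 and 24 of 26 were higher, or 77.8% and 92.3%, beside 22.1% of all genes. None of the 53 was lower with miR-101a in either fit, by edgeR or by DESeq2, nor at an unadjusted p under 0.05, where 8.64% and 21.3% of all genes were lower. The median difference without replicate 3 was 0.255 in the S phase genes and 0.38 in the M phase genes. Without miR-101a replicate 1 or 4 or miR-29a replicate 1 the S phase count was 1, and without miR-101a replicate 2 or 3 or miR-29a replicate 1 the M phase count was 5. Without miR-29a replicate 1 the S phase median was -0.01. Calls made over 12 libraries were all made again over 11, in the same direction: 3, 2, 11, 10, 3 and 8 of them across both sets and the comparisons above. The 11 libraries are part of the 12 and spread less, so this is no separate check.

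**Figure D1:**
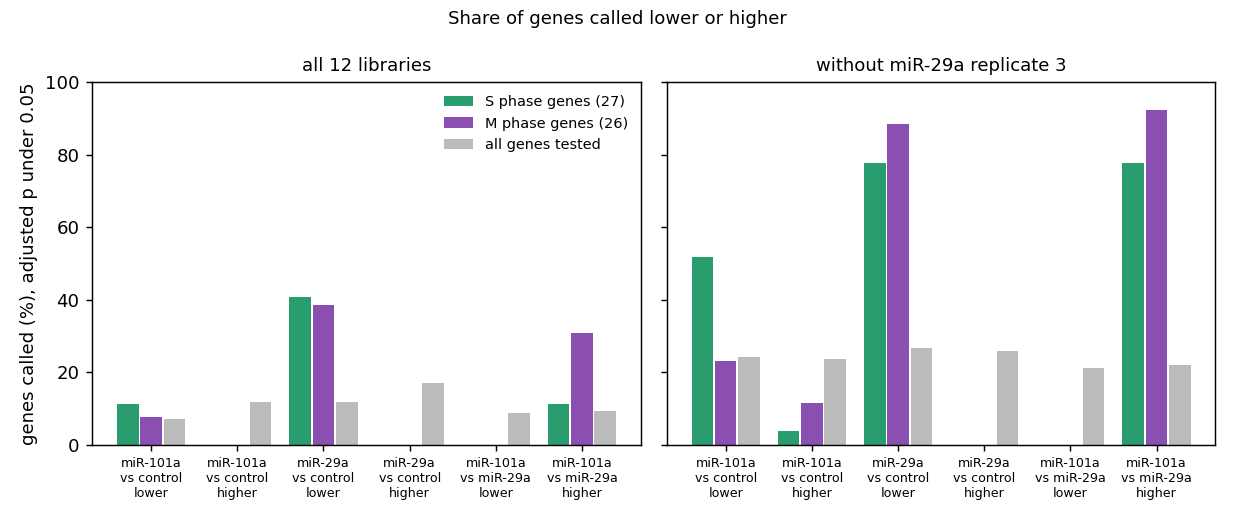
Percent of the 27 S phase genes, the 26 M phase genes and all genes tested that were called lower or higher (vertical axis, adjusted p under 0.05) in each comparison, over all 12 libraries (left) and without miR-29a replicate 3 (right). In the right panel the miR-29a bars for lower genes reach 77.8% and 88.5% beside 26.8% of all genes, while the M phase bar for miR-101a, 23.1%, is about as high as that of all genes, 24.2%.

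A score per library, the mean of log2(CPM + 1) over a set's genes less the mean of the control libraries, shows the same values library by library. In control the S phase score lay between -0.03 and 0.03 and the M phase score between -0.03 and 0.03. With miR-101a the S phase score was -0.12, -0.14, -0.06 and -0.08 in replicates 1 to 4, with a mean of -0.10 ± 0.035 (SD, n = 4), and all 4 libraries lay below all 4 control libraries. The M phase score with miR-101a, -0.07, -0.04, 0.02 and -0.02, overlapped that of control. In miR-29a replicates 1, 2 and 4 the S phase score was -0.50, -0.31 and -0.34 and the M phase score -0.52, -0.32 and -0.44. These 3 libraries were the lowest of the 12 on both scores. In miR-29a replicate 3 the S phase score was 0.16, above every control library, and the M phase score -0.105, below every control and miR-101a library. The sign of that M phase score depended on the average: with the median over the genes in place of the mean it was 0.088, above every control library, and the S phase score stayed at 0.16. Under RLE scaling the mean scores were 0.08 and -0.18. The S phase score less the M phase score was -0.095 to -0.05 with miR-101a, -0.06 to 0.065 in control, 0.01 to 0.10 in miR-29a replicates 1, 2 and 4, and 0.26 in miR-29a replicate 3. With the median the last value was 0.069, inside the control range of -0.075 to 0.078. With the mean, under TMM or RLE scaling, the miR-101a range overlapped that of control, through control replicate 3. With the median it lay below the control range, at -0.118 to -0.086. With 0.25 in place of 1 added to the CPM it lay just below, at -0.094 to -0.064 against a lowest control value of -0.063. The range of miR-29a replicates 1, 2 and 4 overlapped control with the mean and with the median. These scores describe the chosen genes and were given no test.

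**Figure D2:**
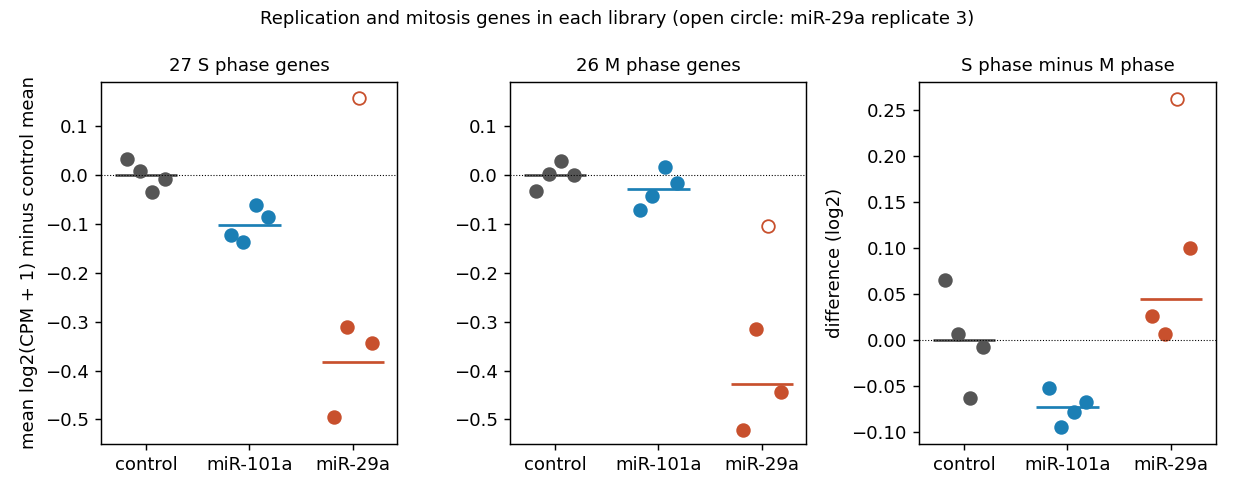
Score of each library (vertical axis, mean log2(CPM + 1) over the genes of a set less the control mean) for the S phase genes, the M phase genes and their difference; points are libraries, lines are group means without miR-29a replicate 3, which is the open circle. The miR-101a libraries lie below control in the S phase panel only, the filled miR-29a points lie lowest in both sets, and the open circle lies at 0.16 for S phase and -0.105 for M phase, which with the median over the genes would be 0.088.

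Summed over a set, the S phase genes held 2794 ± 77.7 CPM in control (mean ± SD, n = 4), 2380.2 ± 72.5 with miR-101a and 1968 ± 143 in miR-29a replicates 1, 2 and 4. miR-29a replicate 3 held 2865.5 CPM, above the highest control library at 2862. The M phase genes summed to 3308 ± 56.8 CPM in control, 2955 ± 76.6 with miR-101a and 2362 ± 164 in miR-29a replicates 1, 2 and 4. In these sums both treatments lay below all control libraries for both sets, apart from miR-29a replicate 3 for the S phase genes. A sum follows the most abundant members, and more abundant members tended to have lower fold changes. Across genes, Spearman's correlation of the control level in RPKM with the change in the fit without replicate 3 was -0.68 for miR-101a and -0.76 for miR-29a over the 27 S phase genes, and -0.45 and -0.33 over the 26 M phase genes. Genes are not independent replicates and share the same libraries, so these are descriptions. The control level also enters each fold change, and no value over all genes is set beside them.

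The MCM2-7 helicase, 6 subunits that unwind DNA at the fork, was lower with both microRNAs. All 6 subunits fell with miR-29a in both fits, with changes of -0.53 to -0.41 over 12 libraries and -0.65 to -0.51 without replicate 3. With miR-101a 1 of 6 fell over 12 libraries and 5 of 6 without replicate 3. Of all genes tested 6.97% and 24.2% fell with miR-101a in these fits, and 11.9% and 26.8% with miR-29a. mcm2 had 229, 213, 210.3 and 218 CPM in the control libraries, 139.6, 146, 153 and 155 with miR-101a, 125, 142 and 150.1 in miR-29a replicates 1, 2 and 4 and 186 in replicate 3. Every treated library lay below every control library, and the treated groups overlapped each other. It fell with miR-101a, with a log2 fold change ± SE of -0.55 ± 0.11 (edgeR adjusted p = 0.0039) and -0.57 without replicate 3, and with miR-29a (-0.53 ± 0.11, adjusted p = 0.0031, and -0.65 without replicate 3), and the direct difference was not called without replicate 3 (0.08 ± 0.06, adjusted p = 0.31) or over 12 libraries (-0.02).

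For the other subunits the mean of the miR-101a libraries lay between that of control and that of miR-29a replicates 1, 2 and 4. mcm6 had 199.99, 190.4, 184 and 181 CPM in control, 159, 158, 161 and 169.5 with miR-101a, 116, 138 and 135 in miR-29a replicates 1, 2 and 4 and 151 in replicate 3. The 3 groups did not overlap in mcm6, also with replicate 3 included. It fell with miR-29a (-0.48 ± 0.08, adjusted p = 0.0011, and -0.55 without replicate 3), while the change with miR-101a was called only without replicate 3 (-0.24 ± 0.05, against -0.22 ± 0.08 and not called over 12 libraries). mcm3 had 174, 163, 151 and 163 CPM in control, 131, 135, 141 and 143 with miR-101a and 102, 119 and 123 with 129 in replicate 3 for miR-29a. It fell with miR-29a (-0.46 ± 0.08, adjusted p = 0.0014, and -0.51 without replicate 3), and each miR-29a library lay below each miR-101a library. mcm5 had 223, 205, 199.9 and 216 CPM in control, 175, 181, 203 and 186 with miR-101a, 131, 151 and 151 in miR-29a replicates 1, 2 and 4 and 201 in replicate 3. In mcm5 miR-101a replicate 3 and miR-29a replicate 3 reached the range of control, and the gene fell with miR-29a (-0.41 ± 0.12, adjusted p = 0.02, and -0.55 without replicate 3). mcm7 had 186, 186, 182 and 173 CPM in control, 154, 166, 204 and 157 with miR-101a, 115, 129.9 and 129 in miR-29a replicates 1, 2 and 4 and 169 in replicate 3. Its miR-101a replicate 3 was above all control libraries, and mcm7 was the subunit not called with miR-101a in either fit (-0.11 ± 0.08 without replicate 3 and -0.10 over 12 libraries). mcm4 changed by -0.32 ± 0.05 with miR-101a and -0.55 ± 0.06 with miR-29a without replicate 3, both called. Over 12 libraries these were -0.30, not called, and -0.41, called. Over 12 libraries some of these calls lay close to the threshold. That of mcm5 with miR-29a was lost without control replicate 1 or 4 (adjusted p = 0.057 and 0.051). That of mcm7 was lost without control replicate 1, 2 or 3 or miR-29a replicate 1 or 4 (adjusted p from 0.051 to 0.06). mcm6 and mcm3 were called with miR-101a when miR-29a replicate 1 was left out (-0.22 and -0.24).

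**Figure D3:**
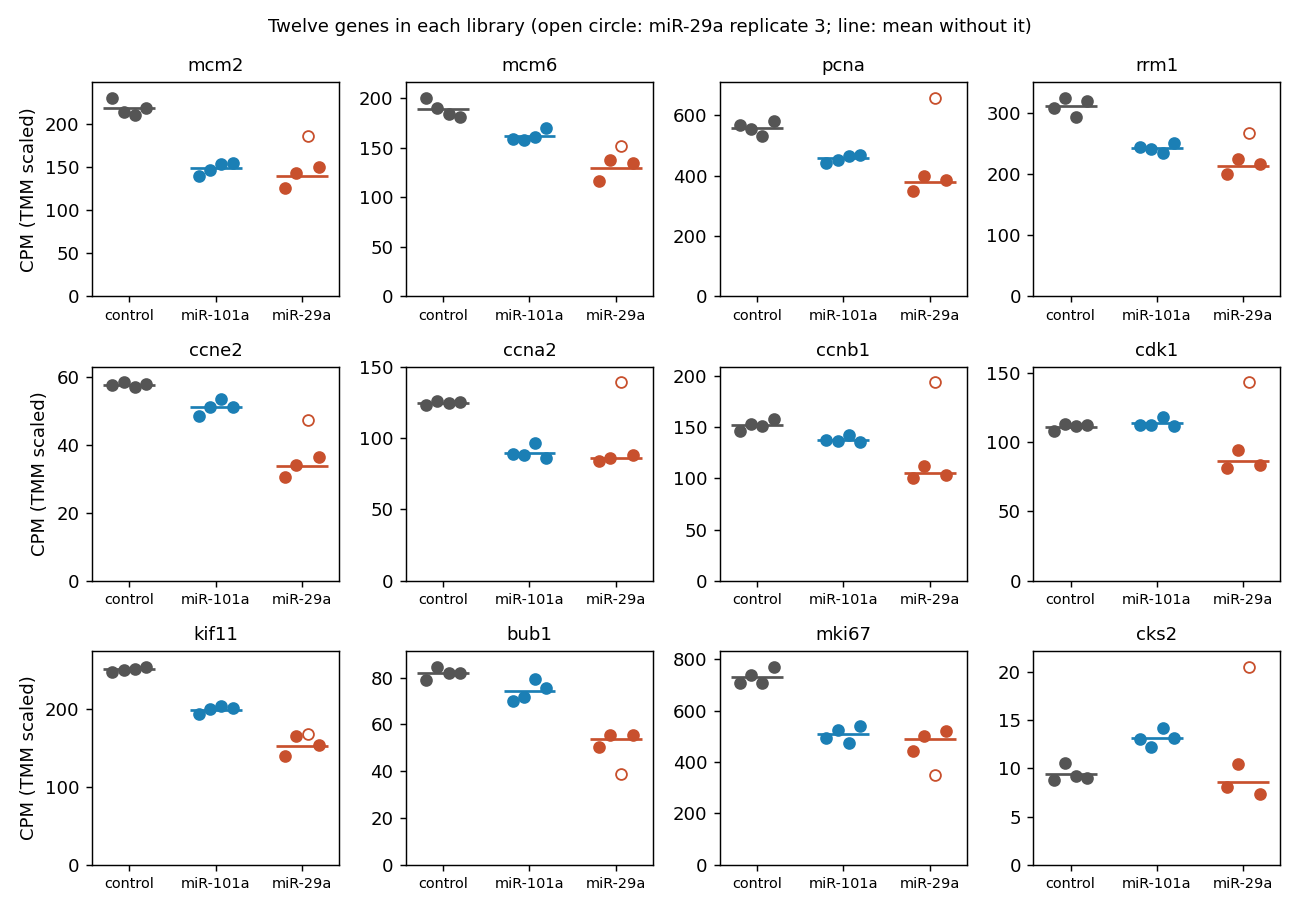
CPM of 12 members in each library (vertical axis, counts-per-million values after TMM scaling, starting at 0); points are libraries, lines are group means without miR-29a replicate 3, the open circle. The 3 groups separate without overlap in mcm6, ccne2 and kif11, and miR-101a and miR-29a overlap in mcm2 and mki67. The open circle lies above its group in pcna, ccna2, ccnb1 and cdk1, among others, and below it in bub1 and mki67.

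Factors that load and fire the helicase changed less evenly. With miR-29a 2 of 6 fell over 12 libraries (cdc6 and mcm10) and 3 of 6 without replicate 3, where 11.9% and 26.8% of all genes fell. With miR-101a 1 of 6 fell and 1 rose without replicate 3, no more than the 24.2% and 23.7% of all genes that did. cdc6, which loads MCM2-7 onto origins, had 45.1, 43.7, 40.9 and 44.8 CPM in control, 45.9, 40.7, 49.4 and 43.5 with miR-101a, 27.9, 32.3 and 31.02 in miR-29a replicates 1, 2 and 4 and 42.1 in replicate 3. The miR-101a libraries covered the control range, and the ordinary miR-29a libraries lay below both. It was higher with miR-101a than with miR-29a (0.43 ± 0.12, adjusted p = 0.024, and 0.55 without replicate 3). mcm10, which helps to activate the helicase, had 13.2, 12.4, 13.2 and 11.8 CPM in control, 10.9, 11.1, 9.07 and 10.6 with miR-101a, 8.51, 10.1 and 10.04 in miR-29a replicates 1, 2 and 4 and 11.1 in replicate 3. All treated libraries were below all control libraries, and mcm10 fell with miR-29a (-0.35 ± 0.11, adjusted p = 0.033, and -0.41 without replicate 3). cdt1, the other loading factor, and gins1, a subunit of the GINS complex that joins the active helicase, were not called against control in either fit. gins2 fell with miR-29a only without replicate 3 (-0.27 ± 0.10, against 0.09 over 12 libraries). cdc45, the remaining part of the active helicase, was the 1 S phase gene that rose with miR-101a in that fit (0.22 ± 0.09, adjusted p = 0.046), and over 12 libraries it was not called (0.24 ± 0.14). Leaving out single libraries ended calls of the 12-library fit here too. The fall of mcm10 with miR-29a was lost without control replicate 1, 2 or 3 or miR-29a replicate 1, 2 or 4 (adjusted p from 0.0522 to 0.0855). The fall of cdc6 was lost without control replicate 1, 2 or 4 or miR-29a replicate 1, 2 or 4 (0.0514 to 0.0647), and its direct difference without miR-101a replicate 1, 3 or 4 or miR-29a replicate 1 or 4 (0.0506 to 0.0765).

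Of the 7 polymerase and fork factors 1 fell with miR-29a over 12 libraries and 6 without replicate 3, when 5 also fell with miR-101a. Of all genes tested 11.9% and 26.8% fell with miR-29a in these fits, and 24.2% with miR-101a without replicate 3. The 1 of 7 over 12 libraries was near the background. pcna, the sliding clamp that holds polymerases on DNA, had 566, 556, 532 and 583 CPM in control and 441, 451, 467 and 469.5 with miR-101a, with no overlap. In miR-29a replicates 1, 2 and 4 it had 350.04, 399 and 385 CPM, below every miR-101a library, and in replicate 3 it had 657, the highest value of the 12. The call therefore turned on that library: the change with miR-29a was -0.32 ± 0.17 over 12 libraries (adjusted p = 0.19) and -0.57 ± 0.05 without replicate 3 (adjusted p = 6.9e-08). With miR-101a it was -0.29 ± 0.17 (adjusted p = 0.29) and -0.31 ± 0.05 (adjusted p = 4.1e-05).

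Most of the other fork factors fell with miR-29a once replicate 3 was left out. pola1, the catalytic subunit of polymerase alpha, was the one of the 7 that fell with miR-29a over 12 libraries (-0.50 ± 0.12, and -0.39 without replicate 3). fen1, the flap endonuclease that processes Okazaki fragments, changed by -0.55 ± 0.05 with miR-29a without replicate 3 and by -0.18 ± 0.05 with miR-101a, against -0.23 and -0.16 over 12 libraries. rfc4 of the clamp loader fell with miR-29a only (-0.39 ± 0.06, beside -0.06 ± 0.06 with miR-101a, the difference being 0.33 ± 0.06 and called, against -0.07, -0.04 and 0.02 over 12 libraries). The primase prim1 and the chromatin assembly subunit chaf1b fell with both microRNAs without replicate 3, with changes of -0.28 to -0.155, and their direct differences were not called. pole2, a subunit of polymerase epsilon, was not called against control in either fit.

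Nucleotide supply divided by gene. rrm1, the large subunit of ribonucleotide reductase, which makes deoxyribonucleotides, had 308, 324, 292 and 319 CPM in control, 245, 240.2, 235 and 251 with miR-101a, 199, 225 and 217 in miR-29a replicates 1, 2 and 4 and 267 in replicate 3. All treated libraries lay below all control libraries. It fell with miR-101a (-0.36 ± 0.09, adjusted p = 0.019, and -0.38 without replicate 3) and with miR-29a (-0.45 ± 0.09, adjusted p = 0.0033, and -0.54 without replicate 3). The call with miR-101a was lost without control replicate 2 or 4 or miR-101a replicate 1 or 3 (adjusted p from 0.0503 to 0.0605).

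The small subunit rrm2 has 2 copies in the table, which may share reads. The copy ENSDARG00000020711 had 77.2, 83.8, 80.7 and 83.4 CPM in control, 78.4, 81.6, 90.1 and 75.3 with miR-101a, 60.02, 69.5 and 72.7 in miR-29a replicates 1, 2 and 4 and 139.8 in replicate 3. Its direction with miR-29a rested on that library, since the change was 0.07 ± 0.21 over 12 libraries, not called, and -0.27 ± 0.07 without it (adjusted p = 0.0025). The copy ENSDARG00000078069 had 26.7, 28.6, 26.1 and 27.7 CPM in control, 39.2, 34.8, 23.4 and 36.7 with miR-101a, 19.6, 25.6 and 24.2 in miR-29a replicates 1, 2 and 4 and 23.3 in replicate 3. The miR-101a libraries lay above control except for replicate 3, which was below it. This copy was higher with miR-101a than with miR-29a (0.53 ± 0.14, adjusted p = 0.025, and 0.52 without replicate 3), and neither change against control was called. The difference was lost without miR-101a replicate 1, 2 or 4 or miR-29a replicate 1 (adjusted p from 0.065 to 0.079), and a rise with miR-101a was called without miR-101a replicate 3 (0.44, adjusted p = 0.017). dhfr and tyms, which serve thymidylate synthesis, fell with miR-29a only without replicate 3 (-0.18 ± 0.07 and -0.16 ± 0.06, against 0.08 and 0.10 over 12 libraries) and were not called with miR-101a.

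Cyclins E and A, the partners of CDK2 at S phase entry and after it, did not change alike. ccne2 had 57.4, 58.3, 56.8 and 57.9 CPM in control, 48.4, 51.1, 53.4 and 51.03 with miR-101a, 30.6, 33.98 and 36.2 in miR-29a replicates 1, 2 and 4 and 47.3 in replicate 3. The groups did not overlap, replicate 3 included, and ccne2 had the largest fall of the S phase genes with miR-29a, -0.64 ± 0.11 over 12 libraries (adjusted p = 0.0013) and -0.78 ± 0.06 without replicate 3. ccne1 had 10.5, 11.4, 10.6 and 11.1 CPM in control, 12.01, 11.2, 12.8 and 10.1 with miR-101a, 10.7, 10.5 and 11.04 in miR-29a replicates 1, 2 and 4 and 18.6 in replicate 3. Apart from that last value all libraries of ccne1 lay between 10.1 and 12.8 CPM, and it was called in no comparison of either fit. ccna2 had 123, 126, 124 and 125 CPM in control, 88.6, 88.1, 96.5 and 86.2 with miR-101a, 84.04, 86.3 and 87.8 in miR-29a replicates 1, 2 and 4 and 139 in replicate 3. Replicate 3 was the highest library, and all other treated libraries lay below control. The gene fell with miR-101a (-0.47 ± 0.14, adjusted p = 0.037, and -0.49 without replicate 3) and, without replicate 3, with miR-29a (-0.54 ± 0.05, adjusted p = 4.8e-08, against -0.33 ± 0.14 and 0.11 over 12 libraries). Its direct difference was 0.05 ± 0.05 without replicate 3 and -0.14 over 12 libraries, not called in either. Leaving out any 1 of the 8 control and miR-101a libraries ended the call of ccna2 with miR-101a in the 12-library fit (adjusted p from 0.06 to 0.093).

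In the plot of fold changes by role, every M phase group lay below 0 with miR-29a and most M phase genes lay nearer to 0 with miR-101a. Of the 9 cyclin B and mitotic kinase genes 1 fell with miR-29a over 12 libraries (plk1) and 8 without replicate 3. Of all genes tested 11.9% and 26.8% fell in these fits, so the count over 12 libraries was no more than the background. All 9 were higher with miR-101a than with miR-29a without replicate 3, where 22.1% of all genes were. ccnb1, which with CDK1 drives entry into mitosis, had 146, 153, 152 and 159 CPM in control, 138, 137, 142 and 135 with miR-101a, 100.4, 113 and 104 in miR-29a replicates 1, 2 and 4 and 194 in replicate 3. The ordinary miR-29a libraries lay below all others and replicate 3 above all others. Its change with miR-29a was -0.26 ± 0.18 over 12 libraries (adjusted p = 0.31) and -0.53 ± 0.05 without replicate 3 (adjusted p = 7.5e-08). ccnb3 had 50.3, 46.5, 47.1 and 48.5 CPM in control, 50.2, 53.4, 57.8 and 48.98 with miR-101a, 35.2, 40.98 and 35.6 in miR-29a replicates 1, 2 and 4 and 54.9 in replicate 3. Control and miR-101a overlapped in ccnb3, and miR-29a replicates 1, 2 and 4 were below both. Without replicate 3 ccnb3 fell with miR-29a (-0.37 ± 0.07), and with miR-101a it was at 0.11 ± 0.06 and not called. Over 12 libraries the values were -0.21 and 0.13.

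cdk1, the kinase itself, had 108, 113, 112 and 113 CPM in control, 112, 112, 118 and 112 with miR-101a, 81.7, 94.2 and 83.5 in miR-29a replicates 1, 2 and 4 and 143 in replicate 3. Control and miR-101a overlapped, and the ordinary miR-29a libraries were below both. The change with miR-29a was -0.15 ± 0.15 over 12 libraries (adjusted p = 0.51) and -0.37 ± 0.05 without replicate 3 (adjusted p = 1.2e-05). plk1, the polo-like kinase of spindle and kinetochore, had 170.2, 169.7, 175 and 173 CPM in control, 161, 162, 166 and 163 with miR-101a, 119, 133 and 129 in miR-29a replicates 1, 2 and 4 and 170.5 in replicate 3. It fell with miR-29a (-0.32 ± 0.10, adjusted p = 0.029, and -0.44 without replicate 3), and replicate 3 lay within the control range. That call was lost without any 1 of the control libraries or of miR-29a replicates 1, 2 and 4 (adjusted p from 0.056 to 0.072). aurka, the centrosome kinase, fell without replicate 3 with miR-29a (-0.55 ± 0.07) and with miR-101a (-0.34 ± 0.06), against -0.36 and -0.32 over 12 libraries. aurkb, the kinase of the chromosomal passenger complex, fell with miR-29a alone in that fit (-0.61 ± 0.07, beside -0.00 ± 0.06 with miR-101a), with a direct difference of 0.61 ± 0.07 (adjusted p = 1.9e-06). Over 12 libraries aurkb was at -0.24, 0.02 and 0.26 in these comparisons.

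The small CDK-binding protein cks2 went the other way with miR-101a. It had 8.78, 10.6, 9.16 and 8.96 CPM in control, 13.1, 12.2, 14.2 and 13.1 with miR-101a, 8.05, 10.5 and 7.36 in miR-29a replicates 1, 2 and 4 and 20.5 in replicate 3. All miR-101a libraries were above all control libraries. cks2 rose with miR-101a without replicate 3 (0.47 ± 0.10, adjusted p = 0.00084), while the nearly equal change over 12 libraries was not called (0.49 ± 0.27, adjusted p = 0.25). Its relative cks1b fell with miR-29a in the fit without replicate 3 (-0.25 ± 0.07) and was at 0.09 ± 0.06 with miR-101a, not called, against 0.05 and 0.11 over 12 libraries.

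**Figure D4:**
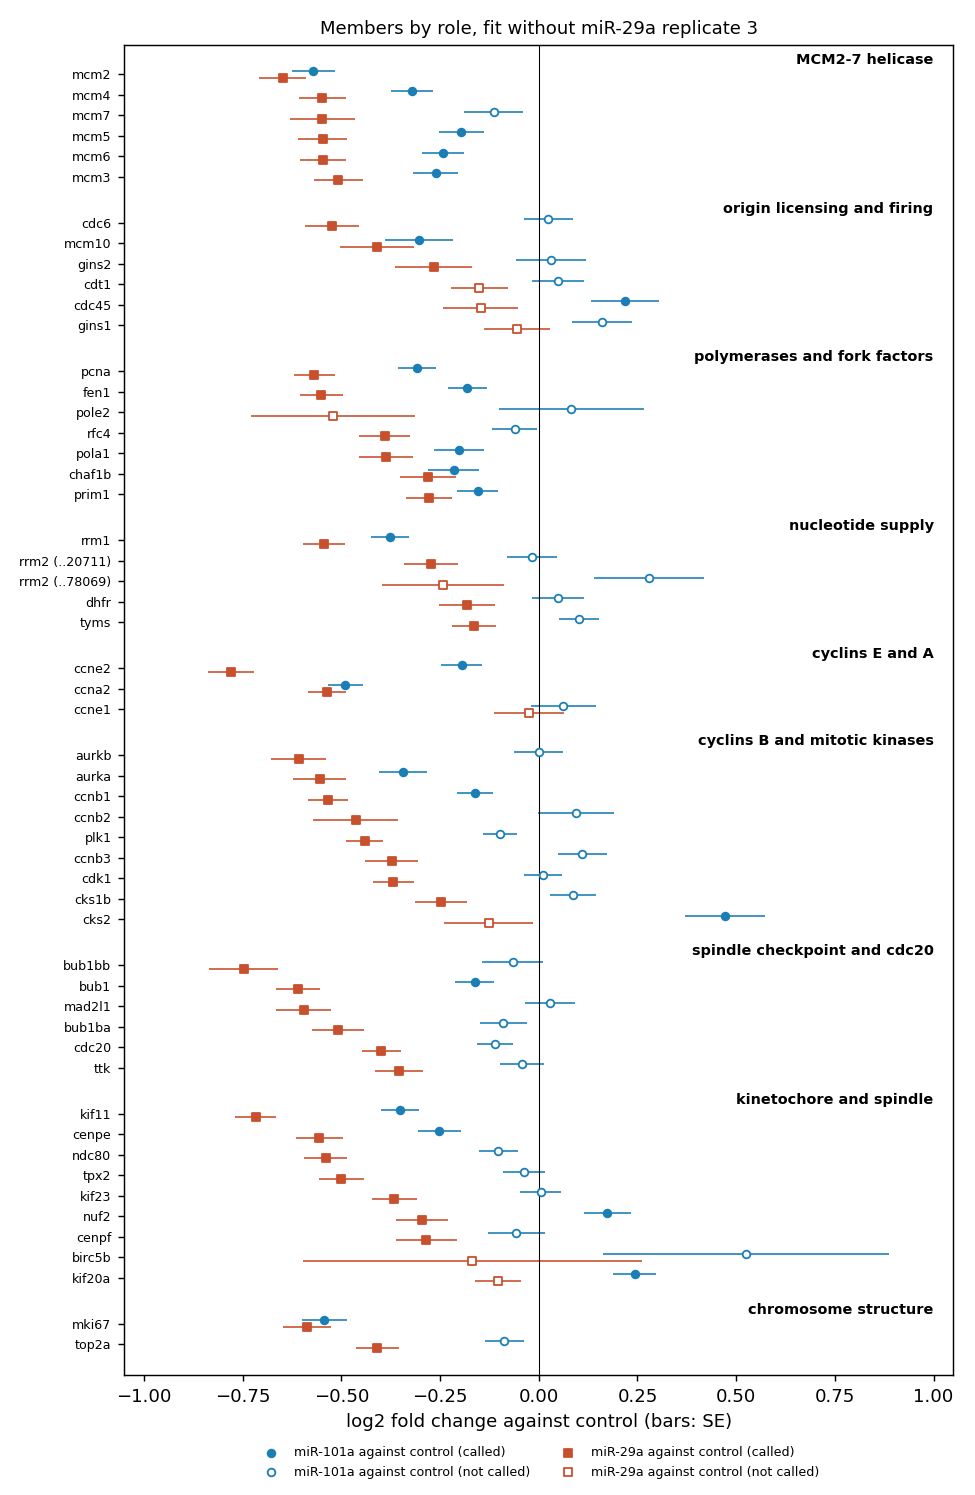
Log2 fold change against control (horizontal axis, bars are standard errors) of each of the 53 genes, grouped by role, for miR-101a (circles) and miR-29a (squares) in the fit without miR-29a replicate 3; filled symbols were called. All squares lie below 0, with 21 S phase and 23 M phase squares filled, while the circles spread on both sides of 0 in every group apart from the helicase and chromosome structure.

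The 6 genes of the spindle checkpoint group, cdc20 included, all fell with miR-29a without replicate 3, and 3 of the 6 did over 12 libraries. Of all genes tested 26.8% and 11.9% did. With miR-101a 1 of 6 fell without replicate 3 (bub1, -0.16 ± 0.05, against -0.14 over 12 libraries). That was no more than the 24.2% of all genes that fell. bub1, a checkpoint kinase of the kinetochore, had 79.02, 84.6, 81.9 and 82.03 CPM in control, 70.2, 71.6, 79.4 and 75.4 with miR-101a, 50.4, 55.5 and 55.4 in miR-29a replicates 1, 2 and 4 and 38.7 in replicate 3. Here replicate 3 was the lowest library, and all miR-29a libraries lay below the rest. bub1 fell with miR-29a (-0.71 ± 0.10, adjusted p = 0.00038, and -0.61 without replicate 3) and was higher with miR-101a than with miR-29a (0.57 ± 0.10, adjusted p = 0.0032, and 0.45 without replicate 3).

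The duplicates bub1ba and bub1bb, copies of the checkpoint gene BUBR1, both fell with miR-29a without replicate 3. bub1bb had 28.2, 28.6, 29.7 and 28.9 CPM in control, 23.9, 29.3, 29.6 and 29.1 with miR-101a, 16.3, 19.9 and 15.6 in miR-29a replicates 1, 2 and 4 and 9.26 in replicate 3. All miR-29a libraries lay below all others, and miR-101a overlapped control. It fell with miR-29a (-0.92 ± 0.18 over 12 libraries, adjusted p = 0.0025, and -0.75 ± 0.09 without replicate 3), and it differed between the microRNAs (0.87 ± 0.18, adjusted p = 0.006, and 0.68 without replicate 3). bub1ba fell only without replicate 3 (-0.51 ± 0.07, against -0.31 ± 0.14 and not called over 12 libraries). mad2l1, which binds cdc20 to hold back anaphase, changed by -0.59 ± 0.07 without replicate 3 and -0.15 over 12 libraries, and the checkpoint kinase ttk fell in both fits (-0.29 ± 0.08 and -0.35 ± 0.06). cdc20, the activator of the anaphase-promoting complex, had 96.9, 98.9, 103 and 102 CPM in control, 90.04, 98.7, 93.9 and 93.03 with miR-101a, 73.3, 79.4 and 75.5 in miR-29a replicates 1, 2 and 4 and 116 in replicate 3. It fell with miR-29a without replicate 3 only (-0.40 ± 0.05, adjusted p = 2.3e-06, against -0.22 ± 0.13 and 0.23 over 12 libraries).

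Of the 9 kinetochore and spindle genes 4 fell with miR-29a over 12 libraries (kif11, kif23, cenpe and tpx2) and 7 without replicate 3, where 11.9% and 26.8% of all genes fell. kif11, the motor that pushes spindle poles apart, had 247, 251, 252 and 254 CPM in control, 193, 199.6, 203 and 201 with miR-101a, 139.7, 166 and 154 in miR-29a replicates 1, 2 and 4 and 168 in replicate 3. Its groups did not overlap, replicate 3 included. kif11 was the 1 member called in all 3 comparisons over 12 libraries: it fell with miR-101a (-0.33 ± 0.07, adjusted p = 0.008, and -0.35 without replicate 3) and with miR-29a (-0.68 ± 0.07, adjusted p = 4.3e-05, and -0.72 without replicate 3), and differed between them (0.35 ± 0.07, adjusted p = 0.0069, and 0.37 without replicate 3). cenpe, a kinetochore motor, fell with miR-29a in both fits (-0.71 ± 0.16 and -0.56 ± 0.06) and with miR-101a without replicate 3 (-0.25 ± 0.05, against -0.23 over 12 libraries). tpx2, a spindle assembly factor that activates aurora A, fell with miR-29a (-0.41 ± 0.10, and -0.50 without replicate 3) and was at -0.02 ± 0.09 and -0.04 with miR-101a.

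Of the 9 kinetochore and spindle genes 2 rose and 2 fell with miR-101a without replicate 3. That is near the background, where 23.7% and 24.2% of all genes did. kif20a, a motor of cytokinesis, rose without replicate 3 (0.24 ± 0.05, adjusted p = 0.0011) and was not called with miR-29a (-0.10 ± 0.06). nuf2, a subunit of the NDC80 complex that binds microtubules, rose with miR-101a (0.17 ± 0.06) and fell with miR-29a (-0.30 ± 0.07) in that fit, while its partner ndc80 fell with miR-29a (-0.54 ± 0.05) and was not called with miR-101a (-0.10 ± 0.05). Neither rise was called over 12 libraries, where kif20a was at 0.26 with miR-101a and -0.25 with miR-29a. In that fit nuf2 was at 0.19 and -0.02, and ndc80 at -0.08 and -0.35. birc5b, a survivin of the passenger complex, had 0.418, 0.392, 0.316 and 0.231 CPM in control, 0.597, 0.248, 0.731 and 0.342 with miR-101a, 0.211, 0.311 and 0.368 in miR-29a replicates 1, 2 and 4 and 0.776 in replicate 3. At this depth no difference was detectable in birc5b.

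Of the chromosome genes, mki67 fell with both microRNAs and top2a with miR-29a. mki67, the proliferation marker Ki-67 that coats mitotic chromosomes, had 706, 739.99, 708 and 770.3 CPM in control, 493, 526, 473 and 542 with miR-101a, 444, 499 and 521 in miR-29a replicates 1, 2 and 4 and 348 in replicate 3. All treated libraries were below all control libraries, and the treated groups overlapped. The changes were -0.52 ± 0.12 with miR-101a (adjusted p = 0.012) and -0.69 ± 0.12 with miR-29a (adjusted p = 0.0014), and they were -0.54 and -0.59 without replicate 3. The direct difference was 0.04 ± 0.06 without replicate 3 and 0.17 over 12 libraries, not called in either. top2a, the topoisomerase that untangles chromosomes, had 397, 400.2, 411 and 406 CPM in control, 369.6, 386, 376 and 408 with miR-101a, 279, 323 and 312 in miR-29a replicates 1, 2 and 4 and 262 in replicate 3. Control and miR-101a overlapped and all miR-29a libraries lay below both. top2a fell with miR-29a (-0.46 ± 0.09, adjusted p = 0.0021, and -0.41 without replicate 3) and differed between the microRNAs (0.39 ± 0.09, adjusted p = 0.0093, and 0.32 without replicate 3).

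Without replicate 3, the 6 S phase genes whose direct difference was not called were mcm2, mcm10, ccna2, ccne1, chaf1b and prim1, and the 2 M phase genes were mki67 and birc5b. Of these mcm2, mcm10, ccna2, chaf1b, prim1 and mki67 fell with both microRNAs in that fit. The estimated differences were 0.08, 0.11, 0.05, 0.06, 0.12 and 0.04, with standard errors of 0.05 to 0.09. A p that misses the threshold does not show that the microRNAs acted alike on them. The M phase genes with the largest called differences were bub1bb (0.68 ± 0.09), mad2l1 (0.62 ± 0.07) and aurkb (0.61 ± 0.07), and the S phase genes pole2 (0.60 ± 0.21), ccne2 (0.58 ± 0.06) and cdc6 (0.55 ± 0.07). In pole2 miR-101a replicate 3 stood apart, at 20.3 CPM against 10.9, 11.7 and 12.9 in replicates 1, 2 and 4. miR-29a replicates 1, 2 and 4 had 7.92, 9.33 and 9.97 CPM of it.

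The deviation of miR-29a replicate 3 from the rest of its group followed gene length among the members. It is given as the log2 ratio of its CPM to the mean of replicates 1, 2 and 4. Of the 40 members shorter than 3000 bases 1 was below 0 (bub1bb, 1871 bases, -0.90), and their median was 0.69. Of the 13 members of at least 3000 bases 7 were below 0, with a median of -0.22. The lowest were cenpf (-1.01, 9162 bases), bub1bb and cenpe (-0.81, 8469 bases), and the highest were birc5b (1.39, 906 bases) and mad2l1 (1.28, 872 bases). Spearman's correlation across the 53 genes was -0.795, a description of genes that share 1 library. Length also went with the change under miR-101a in the fit without replicate 3. Spearman's correlation was -0.53 over the S phase and -0.58 over the M phase genes. With miR-29a in that fit it was -0.27 and -0.16.

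Of the 13 long members 9 are M phase genes and 4 S phase genes, and among the 8 members below 0 pola1 was the only S phase gene. Median lengths were alike, 2432 bases for S phase, 2337 for M phase and 2339 for all genes tested. The median deviation was 0.48 in the S phase and 0.50 in the M phase genes on the log2(CPM + 1) scale, where the trend of all genes at the members' lengths gave 0.175 and 0.20. When a trend on gene length was removed from each library through offsets, over all 12 libraries, 15 S phase and 18 M phase genes fell with miR-29a. With those offsets and without replicate 3 the counts were 22 and 23, close to the 21 and 23 found without offsets. Shares of all genes called with offsets are not given here. Over 12 libraries the miR-29a medians with offsets were -0.39 and -0.34, beside -0.02 over all genes tested. Without offsets they were -0.24 and -0.29.

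**Figure D5:**
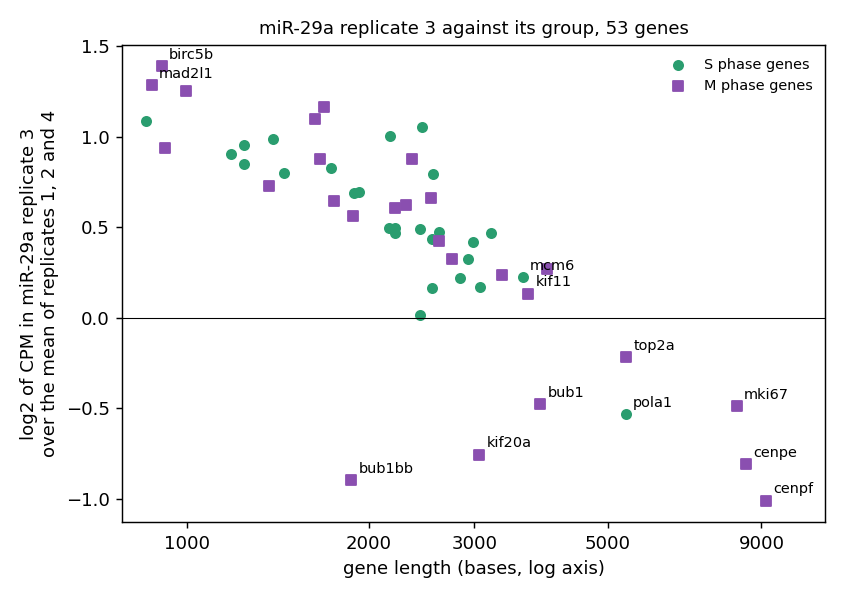
Deviation of miR-29a replicate 3 from the mean of replicates 1, 2 and 4 (vertical axis, log2 ratio of CPM) against gene length (horizontal log axis, bases) for the 53 genes; circles are S phase and squares M phase genes. Short genes lie high and long genes low, with bub1bb as the short gene at -0.90, and 7 of the 8 genes below 0 are M phase genes.

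Other genes of the same pathways, from lists of replication factors and mitosis genes that hold no member, also fell with miR-29a. Of 52 other replication genes tested, 14 fell with miR-29a over 12 libraries and 43 without replicate 3 (median -0.32), and 8 and 20 fell with miR-101a (median -0.12 without replicate 3). Of 62 other mitosis genes 29 and 54 fell with miR-29a (median -0.38), and 2 and 20 with miR-101a (median -0.07). With miR-101a 2 of the replication genes and 5 of the mitosis genes rose without replicate 3. Falls with miR-29a among the replication and mitosis genes were 26.9% and 46.8% over 12 libraries, against 11.9% of all genes. Without replicate 3 they were 82.7% and 87.1%, against 26.8%. Falls with miR-101a were 15.4% and 3.23% over 12 libraries, against 6.97%, so the mitosis share was below the background. Without replicate 3 they were 38.5% and 32.3%, against 24.2%. The rises with miR-101a were 3.85% and 8.06% in that fit, where 23.7% of all genes rose. In the direct comparison without replicate 3, 26 of the other replication genes were higher with miR-101a and 3 lower. Of the other mitosis genes 52 were higher and 1 lower. The higher shares were 50% and 83.9%, against 22.1% of all genes, and the lower shares 5.77% and 1.61%, against 21.3%. Over 12 libraries 8 of these replication genes were higher and 2 lower, and 22 of these mitosis genes were higher and 1 lower. The higher shares were then 15.4% and 35.5%, against 9.23% of all genes, and the lower shares 3.85% and 1.61%, against 8.64%.

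Regulators that switch the cycle on or off were a mixed list. Of 30 tested, 5 fell and 3 rose with miR-101a over 12 libraries, and 9 fell and 4 rose with miR-29a. Without replicate 3 the counts were 12 falls and 8 rises with miR-101a and 17 falls and 5 rises with miR-29a. As shares, the rises were 10% and 13.3% over 12 libraries, where 11.7% and 17.1% of all genes rose, and 26.7% and 16.7% without replicate 3, where 23.7% and 25.8% did. The rises were thus near or below the background. The falls were 16.7% and 30% against 6.97% and 11.9%, and 40% and 56.7% against 24.2% and 26.8%. cdkn1a, the p21 inhibitor of cyclin-dependent kinases that p53 induces, rose with miR-101a by 1.43 ± 0.20 (adjusted p = 0.00049), from 3.30 to 8.85 CPM, and was 0.92 ± 0.20 higher with miR-29a (adjusted p = 0.0044). Without replicate 3 these were 1.42 and 0.96, both called. The cyclin gene ccnd3 rose with miR-101a (1.62 ± 0.31, adjusted p = 0.0036) from a low level of 0.25 to 0.77 CPM, and by 1.60 without replicate 3. It also rose with miR-29a (1.12, adjusted p = 0.022, and 1.06 without replicate 3, called too). Its direct difference was called in neither fit. Several E2F genes fell: with miR-101a e2f3 (-0.38 ± 0.07, adjusted p = 0.0037) and E2F4 (-0.36 ± 0.07, adjusted p = 0.0038), and with miR-29a E2F8 (-0.86 ± 0.09), e2f2 (-1.135 ± 0.15), E2F4 (-0.51 ± 0.07) and E2F7 (-0.63 ± 0.09). All of these E2F falls were called without replicate 3 too, at -0.40 (e2f3) and -0.38 (E2F4) with miR-101a and -0.85 (E2F8), -1.002 (e2f2), -0.54 (E2F4) and -0.64 (E2F7) with miR-29a. E2F7 fell with miR-101a as well (-0.43 ± 0.09, adjusted p = 0.0066, and -0.44 without replicate 3). Called without replicate 3 only were E2F8 (-0.21) and e2f2 (-0.255) with miR-101a and e2f3 (-0.157) with miR-29a, against -0.19, -0.24 and -0.18 over 12 libraries. E2F2 and E2F3 are known as activators of S phase genes and E2F4, E2F7 and E2F8 as repressors. In the direct comparison E2F8 (0.67 ± 0.09), e2f2 (0.90 ± 0.15) and the G1 cyclin gene CCND1 (0.48 ± 0.09, adjusted p = 0.0035) were higher with miR-101a. These 3 of 30 were all that was called over 12 libraries, or 10%, near the 9.23% of all genes that were higher. Without replicate 3 the differences of these 3 were 0.64, 0.75 and 0.50. In that fit 14 of the 30 were higher and 2 lower, or 46.7% and 6.67%, against 22.1% and 21.3% of all genes. E2F5 is among the rises counted with both microRNAs.

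In a whole embryo fewer dividing cells and less RNA per cell cannot be told apart, and markers of cell types moved too. The 17 neural progenitor markers summed to 1737.5 to 1829 CPM in control, 1345 to 1465 with miR-101a and 1282 to 1410.5 with miR-29a, with no overlap between control and either treatment. Of the 17, 5 fell with miR-101a and 8 with miR-29a over 12 libraries, and 13 and 14 without replicate 3. Over 12 libraries these were 29.4% and 47.1%, where 6.97% and 11.9% of all genes fell. The 15 neuron markers summed to 2915 to 3139 CPM in control, 2924 to 2942 with miR-101a and 2875 to 3285 with miR-29a. Of these neuron markers 1 was called with miR-101a over 12 libraries, a rise, and 4 fell and 5 rose without replicate 3. With miR-29a 2 fell and 2 rose over 12 libraries, and 5 fell and 3 rose without replicate 3. Over 12 libraries the neuron shares with miR-29a were 13.3% lower and 13.3% higher, against 11.9% and 17.1% of all genes. The rise with miR-101a was 6.67%, against 11.7%. Without replicate 3 the neuron shares were near those of all genes, 26.7% lower and 33.3% higher with miR-101a against 24.2% and 23.7%, and 33.3% and 20% with miR-29a against 26.8% and 25.8%. The progenitor falls were 76.5% and 82.4% against the same 24.2% and 26.8%.

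Muscle markers were low in the miR-29a libraries where the members were lowest, replicates 1, 2 and 4. The 11 skeletal muscle markers summed to 46274 to 53783 CPM in control, 39195 to 51920 with miR-101a, 21952 to 28280 in miR-29a replicates 1, 2 and 4, and 51965 in replicate 3. In replicate 3 the muscle sum lay within the control range and the S phase sum just above it, while the M phase sum, 2553 CPM, was below every control library. With miR-29a 5 of the 11 fell over 12 libraries and 10 without replicate 3, and with miR-101a 1 and 3 fell. Over 12 libraries these were 45.5% with miR-29a and 9.09% with miR-101a, where 11.9% and 6.97% of all genes fell. Without replicate 3 these were 90.9% with miR-29a, where 26.8% of all genes fell, and 27.3% with miR-101a, near the 24.2% of all genes. No marker of these 3 lists was at 0 counts in any group. Ribosomal protein genes, 91 in all, fell in 76 cases with miR-29a and in 50 with miR-101a without replicate 3, at medians of -0.305 and -0.15. Those falls were 83.5% and 54.9%, where 26.8% and 24.2% of all genes fell, and 4 of the 91 rose with each microRNA. Over 12 libraries their medians were 0.24 and -0.135, and edgeR called 2 and 4 of them, all higher. Those rises were 2.2% and 4.4%, below the 17.1% and 11.7% of all genes that rose. The 15 genes of the early segmentation stage summed to 181 to 189 CPM in control and 148 to 164 with miR-101a. With miR-29a they summed to 137 to 189 CPM. Of the 15, 2 had no counts in control and miR-29a and 3 had none with miR-101a. Of the 8 tested, 3 rose and 1 fell with miR-101a over 12 libraries, and 2 rose and 1 fell with miR-29a. Their medians were 0.458 and 0.313. The rises were 37.5% and 25%, where 11.7% and 17.1% of all genes rose. Without replicate 3, 4 rose and 2 fell with miR-101a, and 3 rose and 2 fell with miR-29a. The rises were then 50% and 37.5%, against 23.7% and 25.8%, and the falls 25% in each, against 24.2% and 26.8%. The part of cell type makeup, of stage and of ribosomal protein genes in the changes of the replication and mitosis genes was not tested.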

How the data were processed

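RNA of whole zebrafish, 2 days old, was sequenced from 12 libraries in 3 groups of 4, with a kit that does not mark strand, per the labels' protocols. The authors deposited counts of reads per gene, whole numbers that were not normalized, and RPKM values. Per the submitters' processing notes, the tools were featureCounts 1.4.6-p4, STAR 2.4.1d and bcl2fastq 1.8.4, and the build was GRCz10. The deposited RPKM values were found to divide most counts by the total of another library: over 7554 genes the implied length varied by at most 0.0265% with totals recycled down the genes and by a median of 18.4% with each library's own total. The deposited values therefore served only as an alternative and for gene lengths, and RPKM was recomputed from the counts.

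The fits used edgeR 4.0.16 under R 4.3.3: filterByExpr (minimum count 10) kept 20872 of 32105 genes (21085 without miR-29a replicate 3), followed by TMM scaling, 1 robust quasi-likelihood fit over all groups, and Benjamini-Hochberg adjustment over all genes tested. The standard error is the absolute log2 fold change over the square root of F. Alternatives used limma 3.58.1 and DESeq2 1.42.0, and the fits were checked on simulated counts. Those counts had the same spread in all genes and libraries and no outlying library. The check therefore does not cover how the fits handle miR-29a replicate 3. Total counts ran from 19804199 to 30383374 per library, so counting error is small except for birc5b and ccnd3. Close copies such as the rrm2 pair can share reads.

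Replicate files all differed by more than sampling noise: the chi-square per gene between replicates of a group was 1.73 or more. Gene symbols came from a table pairing 26269 identifiers with symbols. The members, lists and rules were chosen with earlier results of these data known. Values in every library are given for 19 members always included and for members leading each comparison by p (3 per direction and set among those called, or 1 where none was). Regulators were chosen as the called ones with the smallest p over 12 libraries, at most 4 per comparison. Some values of the chosen regulators in other comparisons are given too, and E2F5 is named outside this rule. Library values of pole2 are also given outside these rules.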

Additional observations from a re-analysis of the deposited data

Results flagged for a closer look

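In 8 of the 87 sets of 4 libraries examined (26 members and the scores, in 3 groups), 1 library lay far from the other 3, with a gap of over 0.829 of the whole range. For a single set chance alone gives about 1 in 20. The sets share the same libraries and are not independent, so the 8 of 87 cannot be tested against that rate. Of these, 6 are miR-29a replicate 3. It had 656.6 CPM of pcna, against 350.04 to 399 in the other 3 libraries, 139.8 CPM of rrm2 (ENSDARG00000020711), against 60.02 to 72.7, and 18.62 CPM of ccne1, against 10.5 to 11.04. It also had 139 CPM of ccna2, against 84.0 to 87.8, 194 CPM of ccnb1, against 100.4 to 113, and 115.8 CPM of cdc20, against 73.3 to 79.4. In each of the 6 genes it was the highest of the 12 libraries. The other 2 are miR-101a libraries. cdk1 had 118.3 CPM in miR-101a replicate 3, against 111.5 to 112.4 in its group. bub1bb had 23.95 CPM in miR-101a replicate 1, against 29.1 to 29.6.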

How the results depend on the processing

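Counts here are S phase and M phase members called. The share of all genes called moved between fits as well. By edgeR 6.97% of all genes fell with miR-101a over 12 libraries and 24.2% without miR-29a replicate 3. Shares for the settings below are not given, so a change in count alone is no result about the members. For miR-101a against control, edgeR on only the 8 libraries compared gave 16 and 9, RLE scaling 6 S phase members, DESeq2 7 S phase members, limma voom with quality weights 15 and 9, and gene length offsets 7 and 4. The 8 libraries and voom each included 2 S phase and 3 M phase rises, and the other calls of this list were falls. Voom gave miR-29a replicate 3 a weight of 0.028, so its counts are close to those of a fit without that library. For miR-29a against control, voom with quality weights gave 21 and 23 and length offsets 18 M phase members. For miR-101a against miR-29a, the 8 libraries gave 0 and 2 (5 and 9 at an unadjusted p under 0.05), DESeq2 6 S phase members, voom 20 and 24, and length offsets 5 and 13. Testing all genes with no filter, or those above 1 CPM in 4 libraries, kept every one of these counts within 1.5 times.

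limma on log2(deposited RPKM + 0.5) gave 1 and 0 for miR-101a (5 and 3 at an unadjusted p under 0.05; DESeq2 called 7 and 2), 6 and 5 for miR-29a, and 1 and 2 between the microRNAs. With + 0.1 it gave 1 and 0, 5 and 5, and 1 and 1. Its medians for miR-29a were -0.519 (S phase, + 0.1) and -0.518 and -0.522 (M phase, + 0.5 and + 0.1). The median of all genes with miR-29a was then -0.104 and -0.136.

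Leaving out each library in turn gave 1 to 15 and 2 to 9 members for miR-101a, 7 to 21 and 7 to 23 for miR-29a, and 1 to 21 and 5 to 24 between the microRNAs, with miR-29a replicate 3 at the upper end each time. The S phase median for miR-101a ranged from -0.18 to -0.114. Settings chosen after seeing the data left that library out as well: length offsets gave 14 and 10, 22 and 23, and 20 and 24 in the same order, with an M phase median of -0.482 for miR-29a, and DESeq2 gave 15 and 9, 21 and 23, and 20 and 24. With the median over members in place of the mean, the S phase less M phase score for miR-101a was -0.102 instead of -0.073. For miR-29a replicate 3 the M phase score turned from -0.105 to 0.088 and the difference went from 0.262 to 0.069.

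Of the 26 members followed through every setting, rrm2 (ENSDARG00000020711) changed sign between a setting and the 12-library fit with a call in either. Of the other 27, gins2, dhfr, tyms and cks1b with miR-29a, and gins1, gins2 and dhfr between the microRNAs, changed sign in the same way when replicate 3 was left out. The change of rrm2 (ENSDARG00000020711) with miR-29a was 0.07 over 12 libraries, -0.272 without replicate 3 and -0.273 with voom weights. It was -0.29 with length offsets and -0.267 with DESeq2, both without replicate 3. Its direct difference was -0.07 and became 0.255, 0.248, 0.257 and 0.252. Leaving out other single libraries kept its sign, with miR-29a up to 0.207 and directly down to -0.204. The cause of these changes was not tested.

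Replicate numbers share no stated source. Deviations of same-numbered libraries correlated between -0.369 and 0.624, and 6 of 12 libraries matched their own number best. With a replicate block 3 and 2 members were called for miR-101a, 10 and 12 for miR-29a and 4 and 8 between the microRNAs, and 2 of 78 calls of named members changed: mcm10 with miR-29a was lost (adjusted p = 0.066) and mcm7 between the microRNAs was gained (0.048).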
